A study of Homo sapiens with 40 samples.

Results

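Induction of the hairpin shCasp10-3 in H929 cells was followed on 4 of the series' 40 arrays, 1 for each of days 2, 3, 4 and 5, selected as the arrays whose label begins with that line and hairpin. H929 is a human multiple myeloma line, that is, a line of malignant plasma cells. The study measured how myeloma lines respond to loss of caspase-10, with lymphoma lines as controls, on 2-colour spotted arrays of lymphoid genes. The cells carried a retroviral vector whose shRNA against CASP10 is switched on by doxycycline, and transduced cells were selected with puromycin. On each array RNA of cells given 20 ng/ml doxycycline (Cy5) was set against RNA of uninduced cells of the same line, hairpin and day (Cy3). For comparison, shCasp10-2, the other hairpin, was taken in H929 (repeat 2, days 2 to 4) and shCasp10-3 in KMS12, another myeloma line (days 2 to 5), each against its own uninduced cells; values of shCasp10-2 repeat 1 are given where they bear on the comparison. The H929 shCasp10-3 course used 1 hairpin and has no repeat. No H929 array with a control shRNA was used, so that doxycycline, the vector and loss of the target cannot be told apart. The labels do not say whether the days are separate cultures, so p-values measure only the spread between days within courses. For fits of days 4 and 5 alone, that spread was shared with the courses taken for comparison. A log ratio holds no level, so the myeloma label could not be checked against plasma cell markers, only their shifts.

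Caspase-10 is an initiator caspase related to caspase-8. Both are recruited by FADD to death receptors of the TNF receptor family, and CFLAR (c-FLIP), a caspase-like protein without catalytic activity, pairs with either of them. BCLAF1, a nuclear protein that binds BCL2 family members, is a known substrate of caspase-10, and in myeloma cells the caspase has been linked to the control of autophagy.

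The arrays of days 2 and 3 stood apart from those of days 4 and 5. All values below are log2 ratios as deposited, read as Cy5 over Cy3: positive values mean more RNA after induction. The labels name the dyes but neither the direction of the ratio nor the base of the logarithm. Of 15246 probes, 14.6% on day 2 and 17.8% on day 3 lay beyond 3 in absolute value, almost all of them on the negative side, against 0.197% on day 4 and 0.131% on day 5. The SD over probes was 1.78 and 1.93 on days 2 and 3, and 0.62 and 0.45 on days 4 and 5. Over 9681 features (the mean of a gene's probes, or a single probe without a gene name) the array medians were -0.36, -0.41, -0.01 and 0.02. Pearson's r over features, which share the array and the course, was 0.58 between days 2 and 3, 0.39 between days 4 and 5 and -0.31 between days 3 and 5. A correlation this far below 0 leaves the sign open where dyes are unknown; here the labels give the same dyes for every array, and the direction was kept. No KMS12 shCasp10-3 array and no array of H929 shCasp10-2 repeat 2 was as wide. Results are therefore given for all 4 days and for days 4 and 5 alone.

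**Figure D1:**
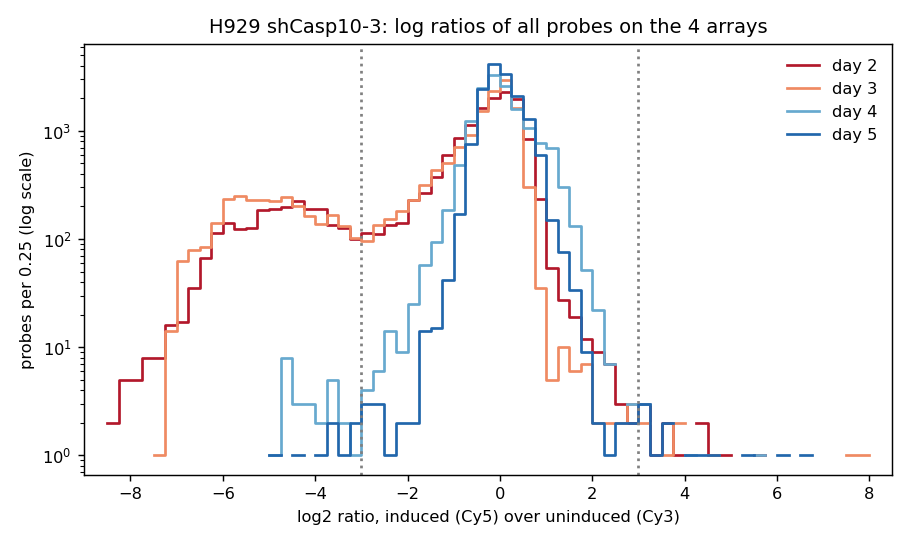
Number of probes (log scale) by log2 ratio, in bins of 0.25, on the 4 arrays of H929 shCasp10-3; dotted lines mark 3 in absolute value. Days 2 and 3 have a second hump on the negative side, with 2209 and 2700 probes below -3, which days 4 and 5 lack.

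The negative tail was largely the same on both wide days. Of the 2209 probes below -3 on day 2, 67.7% were below -3 on day 3, which was 55.4% of that day's 2700. Of the 1495 probes in the tail on both days, 46.2% had no gene name, against 33.3% of all probes. These probes were not low afterwards: of the 3414 probes below -3 on either day, 67.5% were above 0 on day 5, against 44.8% of the others, and their day 5 medians were 0.22 and -0.04. On day 4 the shares were 52.3% and 46.5%. Of the 286 probes above 1 on day 5, 78.0% had been in the tail.

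CASP10, the target of the hairpin, was below 0 on 3 of 4 days, and by little on the days with narrow arrays. The mean of its 6 probes was -1.31 on day 2, -0.60 on day 3, 0.03 on day 4 and -0.09 on day 5. Over the 4 days this was -0.49 (SD 0.61, n = 4; p = 0.25 by a two-sided exact permutation of signs, whose smallest possible value is 0.125), and over days 4 and 5 it was -0.03 (SE 0.12, limma). The probes disagreed. Probe 17182_1 read -0.19, -0.37, -0.60 and -0.49 on days 2 to 5 and probe 28375_1 read -0.98, -0.46, -0.26 and -0.44, so that both were below 0 on every day. Probes 17814_1, 28720_1 and 32624_1 were above 0 on day 4, at 0.27, 0.24 and 0.28. Probe 30438_1 was -6.01 on day 2 and then -0.28, 0.22 and -0.15, far from the other 5 probes on that day. In KMS12 with the same hairpin CASP10 was below 0 on 4 of 4 days, at -0.32 (SD 0.06), and in H929 with shCasp10-2 it was -0.08 in repeat 2 (SD 0.19, n = 3) and -1.42 in repeat 1 (SD 1.85, n = 3). Repeat 1 was below 0 on 3 of 3 days, at -3.56 on day 2, a wide array, and at -0.38 and -0.32 on days 3 and 4. A lower target level was thus read by 2 of 6 probes on every day, and not by the mean of the probes on days 4 and 5.

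**Figure D2:**
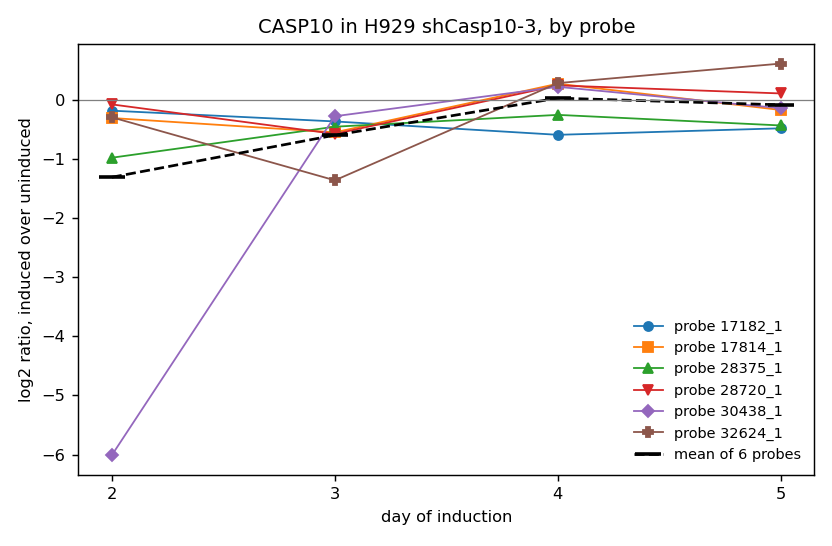
CASP10 log2 ratio of each of 6 probes by day of induction in H929 shCasp10-3, with their mean (dashed). Probes 17182_1 and 28375_1 stay below 0 on all 4 days, and the mean moves from -1.31 on day 2 to -0.09 on day 5.

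Of the other genes of the caspase-10 list (16 of 22 measured), 8 were above 0 on both days 4 and 5 and 1 was below, where 33.4% and 32.5% of all 9681 features were. The list's medians were -0.87, -0.58, 0.09 and 0.10 on days 2 to 5. CFLAR was 0.21, -0.53, 0.52 and 0.33, with a mean of 0.42 over days 4 and 5 (SE 0.15, limma adjusted p = 0.167). CASP8 was -0.91, -0.59, 0.11 and 0.51. FADD, the adaptor, was -2.36, -0.36, 0.17 and 0.11, and BCLAF1 was -1.25, 0.34, 0.22 and -0.53. XIAP, an inhibitor of caspases, was 0.24 on day 4 and 0.80 on day 5. CASP9, the initiator of the mitochondrial pathway, was the 1 member below 0 on every day, at -0.31, -0.56, -0.12 and -0.20. No member passed the test.

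Across the 4 days, no feature passed. The limma fit of the mean against 0 called 0 of 9681 features (0.0%) at a Benjamini-Hochberg adjusted p under 0.05 (smallest 0.638), with 445 at an unadjusted p under 0.05. Below 0 on all 4 days were 1423 features (14.7%), and above 0 on all 4 were 292 (3.02%). With days 4 and 5 alone and the spread shared with the other courses, 1 feature (0.0103%) was called, and 2003 had an unadjusted p under 0.05, of which 966 were higher (9.98%) and 1037 lower (10.7%). The called feature was the unnamed probe 28846_1. It read -3.50, -4.40, -4.70 and -3.63 on days 2 to 5, with a mean of -4.16 over days 4 and 5 (SE 0.29, adjusted p = 0.00336). It lay between -0.34 and 0.65 on the 4 KMS12 arrays and between 0.20 and 0.61 on the 3 arrays of H929 shCasp10-2 repeat 2. In repeat 1 of that hairpin it was 0.28, -0.18 and -0.94 on days 2 to 4, below 0 on the last of them but far from the values with shCasp10-3.

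The genes above 0 on every day with the smallest p were led by LCN2 (lipocalin-2), a secreted iron-siderophore-binding protein. LCN2 was 1.06, 0.87, 1.41 and 1.98 on days 2 to 5, a mean of 1.33 (SE 0.24, limma adjusted p = 0.638), and 1.69 over days 4 and 5 (SE 0.19, adjusted p = 0.0686). Its 2 probes differed: 37005_1 read 1.86, 1.60, 2.89 and 3.57, and 35951_1 read 0.25, 0.13, -0.08 and 0.39. Only the first therefore placed LCN2 clearly above 0. ZNF653, a zinc finger protein, was 2.45, 0.65, 1.40 and 2.24, and was above 0 on all 4 KMS12 days as well (1.42, 0.44, 1.02 and 1.56). TNC, the matrix glycoprotein tenascin C, was 0.82, 1.65, 1.11 and 3.24. In KMS12 it ranged from -1.32 to 3.36, so that its days there were of both signs. ACP2, a lysosomal acid phosphatase, was 1.72, 0.86, 0.55 and 1.24. OGDH, a subunit of the 2-oxoglutarate dehydrogenase of the citric acid cycle, was 1.90, 1.48, 0.27 and 0.54, high on the wide days and lower later. CCNG2 (cyclin G2), a cyclin linked to cell cycle exit, was 0.48, 1.06, 0.51 and 0.40, but only 2 of its 3 probes were above 0 on every day. CYP2D6, PRODH, TRPM1, PLXNA4, FGD3 and RAET1K complete the 12, with 4-day means from 0.38 to 0.76 (adjusted p = 0.638 for each).

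Of the 12 genes below 0 on every day with the smallest p, TSHR (the thyrotropin receptor) varied least between days, at -0.66, -0.76, -0.64 and -0.71 (mean -0.69, SE 0.13, limma adjusted p = 0.638). Both of its probes were below 0 on all 4 days. MALAT1, an abundant nuclear long noncoding RNA, was -1.94, -0.89, -0.75 and -1.21 (mean -1.20, SE 0.26). Its 6 probes all had means below 0, from -3.52 for probe 26479_1, which read -4.13, -3.52, -3.70 and -2.76, to -0.45 for probe 26514_1. By day the probes disagreed. Probes 24277_1, 26478_1 and 26479_1 were below 0 on every day. Probes 26514_1, 30296_1 and 31817_1 were at 0.062, 0.015 and -0.052 on day 3 and at 0.459, 0.084 and 0.004 on day 4. In KMS12 MALAT1 was -0.29, -0.11, -0.32 and 0.07, and in H929 with shCasp10-2 repeat 2 it was -0.16, 0.08 and -0.04. NEAT1, the noncoding RNA that scaffolds paraspeckles, was 0.10 and 0.05 on days 2 and 3 and -0.71 and -0.93 on days 4 and 5. EIF3M, a subunit of translation initiation factor eIF3, was -0.28, -1.01, -1.19 and -0.72, and was below 0 on all 4 KMS12 days too (-0.22, -0.60, -0.76 and -0.28). TICRR, needed to load CDC45 at replication origins, was -0.71, -0.70, -0.58 and -0.46. PRKCI, an atypical protein kinase C, had the lowest mean of these 12, -1.79, but was -2.65 and -2.70 on the wide days and -0.79 and -1.02 later. TRIP10, a CDC42-binding protein, was -1.06, -1.06, -0.52 and -0.35 over 6 probes, of which 1 had a mean above 0. IMPA1, CLDN3, PABIR1, PCNX1, TIMP3 and MARCHF6 were the others, with means between -1.48 and -0.78.

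**Figure D3:**
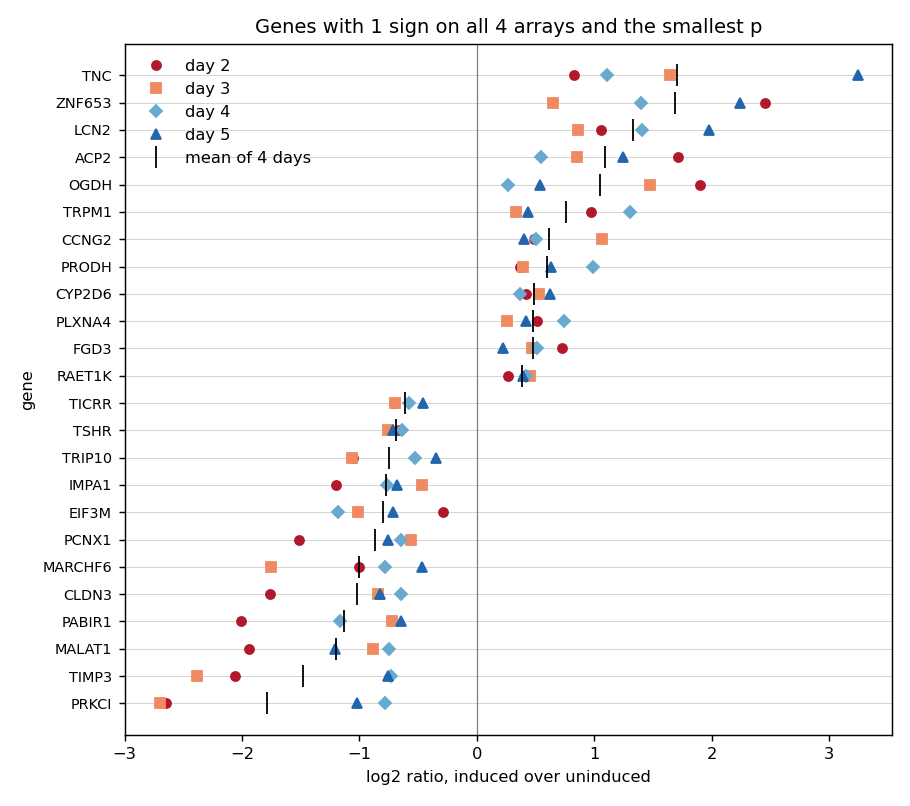
Log2 ratio on days 2 to 5 (points) and 4-day mean (bar) of the 24 genes with 1 sign on all 4 arrays and the smallest p in each direction; none passed the limma threshold. TSHR and RAET1K vary least between days of these 24, and PRKCI and TIMP3 lie far lower on days 2 and 3 than later.

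Nearly all slopes with a small p ran upward from the wide arrays of days 2 and 3. Limma called 0 of 9681 slopes (0.0%, smallest adjusted p = 0.326), with 1405 at an unadjusted p under 0.05, of which 1398 were upward. LMBRD1, a lysosomal protein of cobalamin export, went from -5.37 on day 2 to -2.22, -0.26 and 2.59 (slope 2.58 a day, SE 0.17, adjusted p = 0.326). LSM6, a protein of the U6 spliceosomal particle, was -4.53, -2.62, -0.33 and 0.67. PRKAA2, a catalytic subunit of AMP-activated kinase, MYL2 and SETBP1 had slopes of 1.53, 1.27 and 1.21 a day from starts under -3. In the other direction ATP2C1, the Golgi calcium pump, was 0.93, 0.16, -0.28 and -0.52 (slope -0.48, SE 0.14). IGHD, the IgD heavy chain, was 1.20, 0.76, -0.27 and -0.16, and CKLF, OGDH and NEAT1 had slopes of -0.36, -0.53 and -0.39. Below 0 on both wide days and above 0 on both later days were 2062 features (21.3%), and the reverse held for 694 (7.17%).

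On days 4 and 5, genes of DNA replication lay mostly below 0, though none passed the test. Of the 24 measured members of the list (37 listed), 19 were below 0 on both days and 1 was above, against 32.5% and 33.4% of all features. The medians of the list were 0.10, 0.01, -0.21 and -0.17 on days 2 to 5. At an unadjusted p under 0.05 over days 4 and 5 were 6 lower members and 1 higher, against 10.7% and 9.98% of all features. None passed after adjustment (limma, smallest adjusted p over the list 0.133). MCM5, a subunit of the replicative helicase, was 0.73, 0.01, -0.62 and -0.33 (days 4 and 5: mean -0.47, SE 0.14, adjusted p = 0.133). MCM2 and MCM7, of the same ring, were -0.45 and -0.51 on day 4 and -0.12 and -0.25 on day 5. CDT1, which loads that ring on DNA, was 0.54, 0.02, -0.79 and -0.11. TK1, the thymidine kinase of S phase, was 0.46, -0.14, -0.76 and -0.16, and PCNA, the sliding clamp, was -0.10, 0.17, -0.15 and -0.27. Day 4 was the lower of both days for these genes except PCNA. MCM10, which the rule also names, was below 0 on all 4 days (-0.68, -0.56, -0.07 and -0.10). LIG1, the ligase that joins Okazaki fragments, was the member above 0 on both days, at 0.84 and 0.40, after -2.62 on each wide day.

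Promoters of such genes are known to hold sites for E2F factors, and most members lay on 1 side on days 4 and 5. Therefore 4 promoter windows of members below 0 on both days are shown, all with matches marked in capitals. Each runs from 250 bases before to 50 after the start of the gene (RefSeq, GRCh38.p14): MCM2 at chr3:127598161-127598460 on the + strand, MCM7 at chr7:100101348-100101647 on the - strand, CDT1 at chr16:88803539-88803838 on the + strand and PCNA at chr20:5126573-5126872 on the - strand, 5′ to 3′ with the gene. Capitals mark matches to TTTCCCGC, TTTGGCGC, TTTCGCGC or TTTGCCGC on either strand; in MCM2 a pair of matches overlap.
MCM2: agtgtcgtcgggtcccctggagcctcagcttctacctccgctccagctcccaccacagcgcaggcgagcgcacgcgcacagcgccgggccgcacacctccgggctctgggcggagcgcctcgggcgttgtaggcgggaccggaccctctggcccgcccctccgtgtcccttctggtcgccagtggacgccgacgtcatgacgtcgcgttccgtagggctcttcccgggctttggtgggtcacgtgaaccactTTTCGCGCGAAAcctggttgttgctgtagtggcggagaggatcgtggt
MCM7: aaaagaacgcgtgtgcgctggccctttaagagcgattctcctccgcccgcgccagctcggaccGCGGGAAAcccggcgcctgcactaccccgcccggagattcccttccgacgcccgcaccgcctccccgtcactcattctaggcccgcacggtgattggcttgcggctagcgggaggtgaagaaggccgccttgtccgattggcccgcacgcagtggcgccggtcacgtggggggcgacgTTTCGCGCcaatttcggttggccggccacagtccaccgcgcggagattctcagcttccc
CDT1: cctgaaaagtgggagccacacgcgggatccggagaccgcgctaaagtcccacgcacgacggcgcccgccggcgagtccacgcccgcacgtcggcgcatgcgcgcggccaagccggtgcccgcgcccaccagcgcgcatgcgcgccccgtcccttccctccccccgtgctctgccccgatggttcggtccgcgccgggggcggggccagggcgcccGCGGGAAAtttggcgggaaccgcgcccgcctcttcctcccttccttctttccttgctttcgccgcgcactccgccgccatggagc
PCNA: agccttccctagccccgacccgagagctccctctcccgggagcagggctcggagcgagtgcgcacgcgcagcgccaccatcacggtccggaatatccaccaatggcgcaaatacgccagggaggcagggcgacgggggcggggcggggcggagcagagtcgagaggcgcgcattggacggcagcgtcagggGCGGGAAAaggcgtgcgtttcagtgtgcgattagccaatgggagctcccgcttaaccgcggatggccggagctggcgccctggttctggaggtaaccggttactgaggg
Of the 24 members, 20 had a window in the table, and 10 of these (50.0%) held at least 1 match to the 4 octamers. The share was 3.33% of 27305 windows of the same length and 5.33% of the 3751 of genes on the array. For mitotic genes the share was 12.0% of 25 windows, for glycolysis genes 2 of 19 windows, and for mature B cell genes 4.35% of 23. Of the 13 MYC list windows, which belong to a list also mostly below 0 on days 4 and 5, 0 held one, and LIG1, the replication gene above 0 on both days, held 1. The windows of TK1 and MCM10, which were also below 0 on days 4 and 5, held no match and are not shown. A match is only a match of letters and was not tied to the log ratios.

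The MYC and ribosome biogenesis list had no member above 0 on both later days. Of 16 measured members (28 listed) 12 were below 0 on days 4 and 5, against 32.5% of all features. Of the 16, 8 had been above 0 on both wide days before lying below 0 on both later days (7.17% of all features showed that order). The medians were 0.27, 0.11, -0.25 and -0.24. FBL, the methyltransferase of the box C/D particles that modify ribosomal RNA, was 0.54, 0.01, -0.65 and -0.27. NCL (nucleolin), the member with the smallest p, was -0.62, -0.19, -0.36 and -0.40. MAX, the partner of MYC, was -0.33, -0.31, -0.28 and -0.17 over 5 probes, so that both were below 0 on every day. CAD, of pyrimidine synthesis, was -0.40 and -0.43 on days 4 and 5, and NOP2, a ribosomal RNA methyltransferase, was -0.34 and -0.30. No member passed the limma test over days 4 and 5. At an unadjusted p under 0.05 were 2 of the 16, both lower, a share near the 10.7% of all features.

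Mitotic genes were also more often below 0 than above. Of 33 measured, 18 were below 0 on days 4 and 5 and 2 above, and 7 lower and 1 higher had an unadjusted p under 0.05. For these and the lists that follow, 32.5% of all features were below 0 on both days and 33.4% above, and 10.7% were lower and 9.98% higher at that p. PLK1, a kinase of mitotic entry and exit, was 0.21, -0.32, -0.93 and -0.38. MYBL2, a transcription factor of the G2/M programme, was 0.27, -0.25, -0.95 and -0.48, and AURKA, a spindle kinase, was 0.18, -0.02, -0.56 and -0.37. TPX2, an activator of AURKA, was the most even of them, at -0.29, -0.32, -0.30 and -0.37. CDC25A, a phosphatase that activates CDK2, was the higher one, at 0.83 and 0.51 on days 4 and 5. All 5 histone genes measured were below 0 on both days; H2AX was -0.33 and -0.18. Of 17 G1 cyclins, kinases and inhibitors, 8 were below and 4 above, which includes RBL2, a pocket protein of the RB family, at -0.18 and -0.36.

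Of 20 glycolysis genes, 14 were below 0 on days 4 and 5 and 2 were above, with medians of 0.23, -0.25, -0.27 and -0.12 on days 2 to 5. ENO2, the neuronal enolase, was -5.03, -1.92, -0.78 and -0.50, and PFKP, a phosphofructokinase, was -2.03, -0.36, -0.54 and -0.44. ALDOA (aldolase A) was 0.43, -0.14, -0.90 and -0.19 and PKM (pyruvate kinase) was -0.09, -0.39, -0.61 and -0.36, so that both were lowest on day 4, whereas ENO2 and PFKP were lowest on day 2. PFKL was above 0 on both days (0.65 and 0.01), as was PDK1, the kinase that restrains pyruvate dehydrogenase (0.31 and 0.35). Amino acid transport and integrated stress response genes were below 0 in 10 of 18 and above in 2. SLC3A2, the heavy chain of amino acid transporters, was 0.24, -0.24, -0.82 and -0.52, its partner SLC7A5 was -0.64 and -0.28 on the later days, and ATF4, the factor that induces both, was -0.42 and -0.37. CBS was -1.86, -1.88, -0.34 and -0.42.

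Among the housekeeping machineries, 9 of 12 proteasome genes were below 0 on days 4 and 5 and 1 above, and 10 of 22 ribosomal protein genes were below and 3 above. The respiratory chain had 7 below and 2 above of 12, heat shock proteins 4 and 1 of 8, antioxidant genes 8 and 3 of 18 and cholesterol synthesis 6 and 1 of 11. RPL11 was -0.30, -0.28, -0.52 and -0.27, and HSPA1A, the inducible HSP70, was -0.63, -0.59, -0.68 and -0.07. FASN (fatty acid synthase) was -0.70, -1.42, -1.07 and -0.14, with day 5 nearest to 0. COX17, a copper chaperone of cytochrome oxidase, was above 0 on every day, between 0.13 and 0.35. The unfolded protein response had 8 of 17 below and 4 above; EDEM1, which sends misfolded glycoproteins to degradation, was 0.85, -0.13, 1.05 and 0.69. Lysosomal genes had 6 of 13 below and 2 above. TFEB, their transcription factor, was -0.14, -0.61, -0.79 and -0.51. Of the 8 autophagy genes measured (30 listed), 2 were below and 3 above, with ATG12 at -1.73, -0.49, -0.11 and -0.24.

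**Figure D4:**
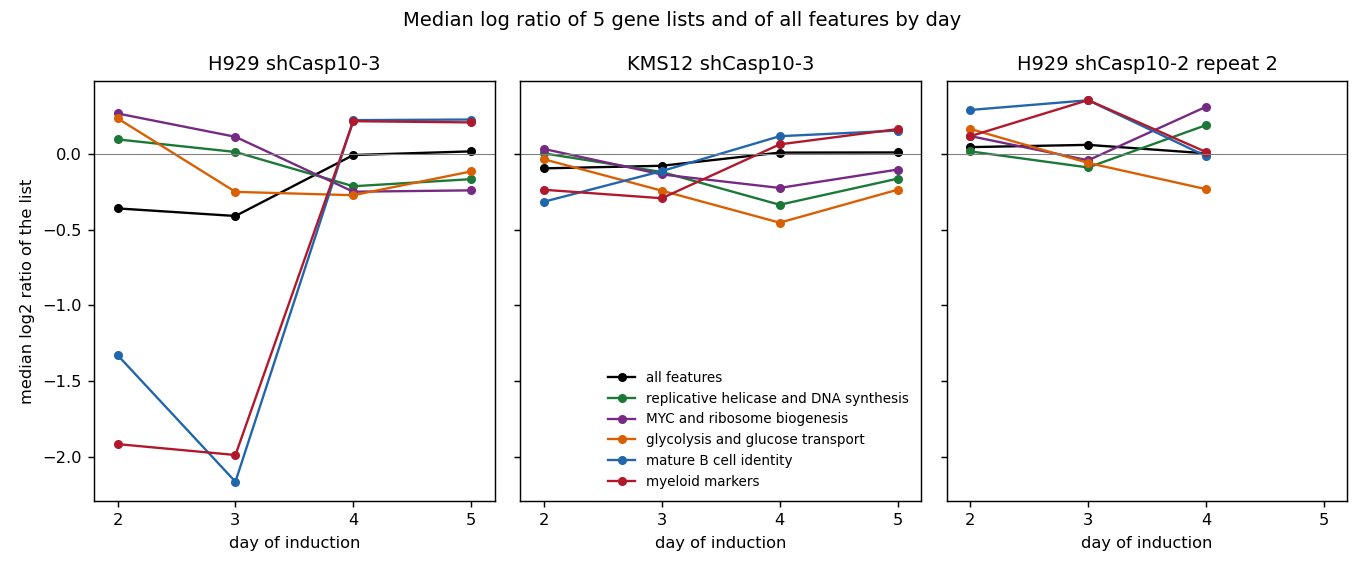
Median log2 ratio of 5 gene lists and of all features by day, in H929 shCasp10-3, KMS12 shCasp10-3 and H929 shCasp10-2 repeat 2. In H929 shCasp10-3 the mature B cell and myeloid medians lie between -2.16 and -1.33 on days 2 and 3 and at 0.21 to 0.23 later, and the replication, MYC and glycolysis medians are below 0 on days 4 and 5.

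Genes of mature B cells showed the opposite order over time. Of 31 measured members, 24 were above 0 on days 4 and 5 and 3 below, and 22 of the 31 had been below 0 on both wide days before lying above 0 on both later days, an order that 21.3% of all features showed. The medians were -1.33, -2.16, 0.22 and 0.23. At an unadjusted p under 0.05 over days 4 and 5 were 4 of the 31 in the higher direction and 0 in the lower. Of all features, 9.98% and 10.7% were. Of all probes below -3 on day 2 or 3, 67.5% were above 0 on day 5. CD79A, a signalling chain of the B cell receptor, was -3.96, -3.82, 0.42 and 0.19 and MS4A1 (CD20) was -1.98, -3.03, 0.33 and 0.11. BTK, a kinase of that receptor, was -1.08, -2.21, 0.57 and 0.44. Both members with the smallest p went the other way: BLK, a SRC family kinase, was -1.33, -1.63, -0.32 and -0.21, and SPIB, an ETS factor, was -1.41, -1.99, -0.11 and -0.36. A changed share of cells expressing these genes and a changed amount of their RNA per cell cannot be told apart in such samples.

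Markers of myeloid cells and of T and NK cells had the same course, and those of erythroid cells and platelets did not. Of 14 myeloid markers, 0 were below and 10 above 0 on days 4 and 5, with medians of -1.91, -1.99, 0.22 and 0.21. At an unadjusted p under 0.05 over these days were 1 higher and 0 lower. CD14 was -5.96, -2.34, 0.94 and 0.52 and MPO, a granule enzyme, was -3.57, -4.44, -0.01 and 0.18. Of 26 T and NK cell markers 4 were below and 14 above (LCK -1.67, -3.11, 0.78 and 0.50), with 5 higher and 1 lower at that p. Of 9 erythroid and platelet markers 2 were below and 5 above. Their medians of -0.08, -0.16, 0.12 and 0.20 lay near 0 on the wide days too. PF4 was -0.65, -1.17, -0.42 and 0.20. Log ratios do not show whether any of these genes had signal in H929, and the part of these markers' shift in the B cell values was not tested. Plasma cell genes themselves were balanced, with 7 of 22 below and 8 above. SDC1 (CD138), the surface proteoglycan that defines plasma cells, was 0.24, -0.39, 0.66 and 0.35, and IRF4 was -0.14, 0.10, -0.18 and -0.37. FGFR3 and NSD2, the genes joined to the immunoglobulin locus by the translocation of this line, were -0.57 and -0.42 on day 4 and both -0.18 on day 5. NSD2 was also below 0 on both wide days (-1.08 and -0.23).

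Immediate-early genes split. Of 23 members, 8 were below 0 on days 4 and 5 and 9 above, with 5 lower and 4 higher at an unadjusted p under 0.05, where 32.5% and 33.4% of all features lay on either side and 10.7% and 9.98% had such a p. The split by sign was thus near that of all features. IER2 was -2.23, -2.74, 0.97 and 1.02, EGR1 was -2.56, -3.48, 1.06 and 0.65 and FOSL2 was 0.73 and 0.66 on the later days. JUN was -1.69, -1.49, -0.29 and -0.60, and DUSP5, a nuclear phosphatase of ERK, was -0.95, -1.31, -0.19 and -0.22. Of 20 p53 targets 4 were below and 8 above. CDKN1A, the cyclin-dependent kinase inhibitor p21, was -0.20, -2.96, 0.32 and 0.58 and TP53INP1 was -1.85, -1.74, 0.33 and 0.72, whereas GADD45A was -5.24, -0.88, -0.56 and -0.66 and TP53I3 was -0.11 and -0.39 on days 4 and 5. In the BCL2 family 6 of 15 were below and 5 above. BAK1, a pore former of the mitochondrial outer membrane, was 0.18, -0.60, -1.15 and -0.55 (days 4 and 5: mean -0.84, SE 0.15, limma adjusted p = 0.0803), and BCL2 was -2.22, -2.44, 0.16 and 0.11. FOXO and quiescence genes had 4 of 15 below and 6 above.

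Signalling lists gave no clear side. NF-kB subunits and targets had 4 of 26 below and 10 above 0 on days 4 and 5; RELA was -0.37, -0.38, -0.55 and -0.25, and LTA (lymphotoxin alpha) was 0.74 and 0.73 on days 4 and 5 after -2.36 and -4.15. Interferon response and MHC class I genes had 11 of 34 below and 15 above, with IRF1 at -2.73, -2.22, -0.35 and -0.44. JAK-STAT genes had 5 of 22 below and 8 above, with JAK1 at -1.43, -0.62, -0.40 and -0.42. Hypoxia-induced genes had 4 of 15 below and 6 above; KDM3A, a histone demethylase, was 0.04, -0.12, 0.72 and 0.67. Adhesion, cytoskeleton and matrix genes had 6 of 29 below and 9 above, with COL7A1 at -3.02, -1.33, -0.66 and -0.42. In these lists, as in all 31, 0 members passed the limma test over 4 days or over days 4 and 5.

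The other hairpin in the same line was compared on matched days. Over days 2 to 4 limma called 0 of 9681 differences between H929 shCasp10-3 and H929 shCasp10-2 repeat 2 (0.0%, smallest adjusted p = 0.621), with 526 at an unadjusted p under 0.05. Leaving out day 4 gave 636 calls, all lower with shCasp10-3, of which 91.4% were features below -3 on days 2 and 3; in all, 889 features (9.18%) were that low on both days. Over features, where the courses share the line, the target, the vector, the doxycycline treatment, the dye orientation and the platform but not the hairpin, the mean of days 4 and 5 correlated with day 4 of shCasp10-2 repeat 2 at r = 0.03. It correlated with day 4 of repeat 1 of shCasp10-2 at r = 0.34. Single arrays, compared over probes, differed widely. Day 5 of shCasp10-3 correlated with days 2, 3 and 4 of repeat 2 at r = 0.21, 0.40 and -0.07. For day 4 these were 0.25, 0.20 and 0.13. With days 4 and 5 of KMS12 shCasp10-3 they were 0.41 and 0.23 for day 4, and 0.37 and 0.33 for day 5. The r of 0.03 thus holds for day 4 of repeat 2 and not for all its days. For days 4 and 5 the shCasp10-2 array of day 5 without a repeat number was added; limma then called 0, with 788 features higher (8.14%) and 669 lower (6.91%) at an unadjusted p under 0.05.

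The replication and MYC lists were on the other side of 0 in repeat 2 of shCasp10-2, but not in its repeat 1. On day 4 of shCasp10-2 repeat 2, 5 of 24 replication genes were below 0 and 18 above (49.6% and 50.4% of all features), with a median of 0.19, and 4 of 16 MYC list genes were below and 12 above, with a median of 0.31. On day 4 of repeat 1, 20 of 24 replication genes were below 0 and 4 above (52.8% and 47.0% of all features), with a median of -0.16, and 10 of 16 MYC list genes were below and 6 above, with a median of -0.06. A difference between the hairpins is therefore not shown for these lists, and the differences that follow hold for repeat 2 and the unnumbered day 5 array. Over days 4 and 5 the difference (shCasp10-3 minus shCasp10-2) had an unadjusted p under 0.05 for 8 of 16 MYC list genes and 5 of 24 replication genes, all lower, and for none in the higher direction. Of all features, 6.91% were lower and 8.14% higher at that p. NCL was 0.85 and 0.52 with shCasp10-2, a difference of -1.07 (95% interval -1.65 to -0.49), and POLR1C, a subunit of RNA polymerases I and III, was 0.64 and 0.54, a difference of -0.85 (-1.28 to -0.41). In repeat 1 NCL was 1.12 and POLR1C 0.20 on day 4, both above 0 as well. CDT1 differed by -0.77 (-1.47 to -0.07) and FEN1, the flap endonuclease, by -0.58 (-1.04 to -0.12). In repeat 1 CDT1 was 0.31 on day 4. BUB1, a checkpoint kinase of mitosis, was -1.02 and -0.13 with shCasp10-3 and 1.05 and 1.84 with shCasp10-2, while repeat 1 was -0.15 on day 4. Glycolysis genes were mostly below 0 on day 4 of repeat 2 of shCasp10-2 as well, 15 of 20 against 49.6% of all features. On day 4 of repeat 1, 12 of 20 were below 0, near the 52.8% of all features. Hypoxia-induced genes lay mostly below 0 with shCasp10-2: 13 of 15 were below 0 on day 4 of repeat 2, with a median of -0.43, and 11 of 15 on day 4 of repeat 1, with a median of -0.14. Over days 4 and 5 5 of 15 differences had an unadjusted p under 0.05 in the higher direction and 1 in the lower. The shares of all features were 8.14% and 6.91%. BHLHE40, a hypoxia-induced repressor, was 0.02 and 0.09 with shCasp10-3 and -1.10 and -0.66 with shCasp10-2, a difference of 0.93 (0.43 to 1.43). P4HA1, of collagen hydroxylation, differed by 0.90 (0.33 to 1.47). The adjusted p was at least 0.265 for each of these differences.

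**Figure D5:**
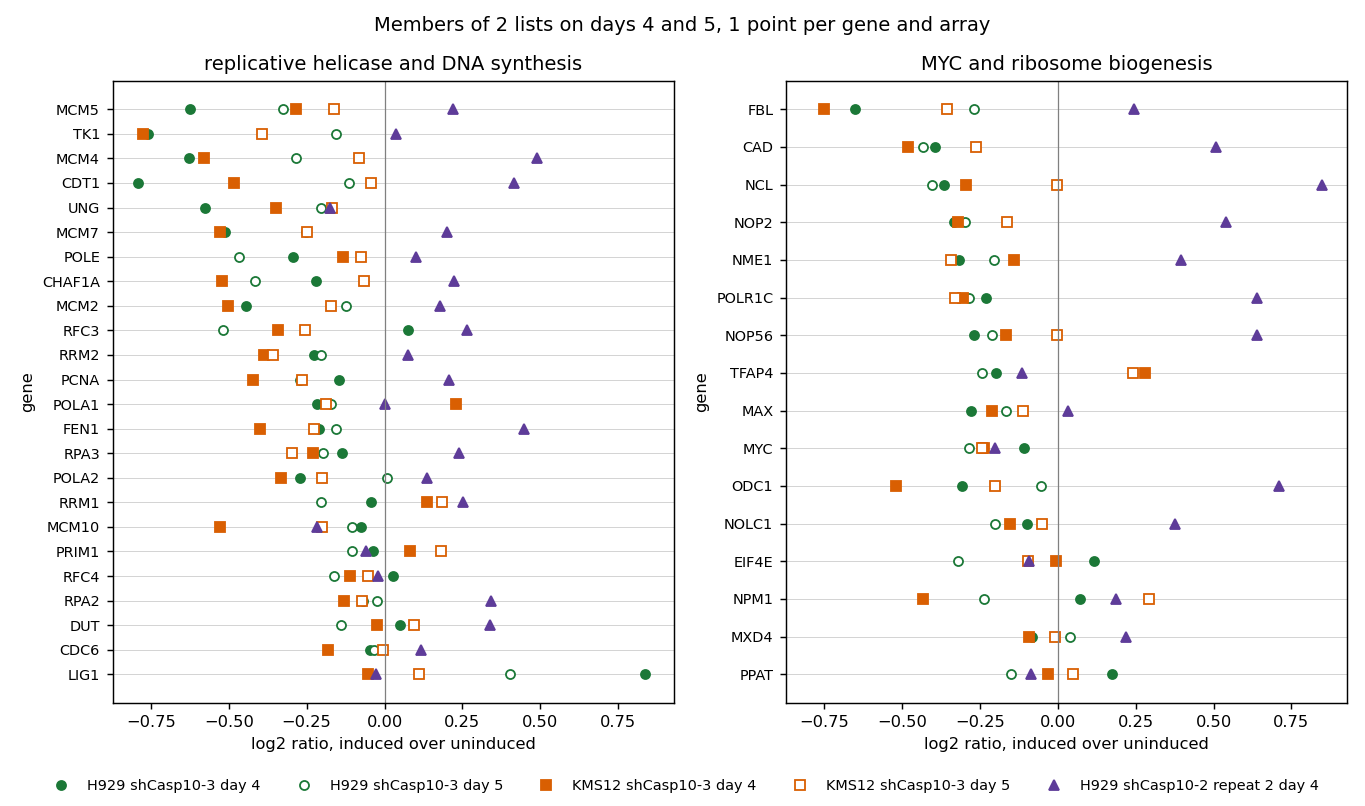
Log2 ratios of the 24 replication and 16 MYC list genes on single arrays: H929 shCasp10-3 and KMS12 shCasp10-3 on days 4 (filled) and 5 (open), and H929 shCasp10-2 repeat 2 on day 4 (triangles). Most points of shCasp10-3 lie below 0 in both lines (19 of 24 replication genes on both days in each line), and 18 and 12 triangles lie above 0; repeat 1 of shCasp10-2, not plotted, had 4 and 6 above 0 on its day 4.

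Among single genes, CCNG2 had the smallest p of those higher than with shCasp10-2 on each matched day. It was -0.56, -0.18 and -0.78 on days 2 to 4 with shCasp10-2 repeat 2, a difference of 1.19 (SE 0.25, limma adjusted p = 0.621). CAPN7, a calpain, differed by 1.01, LCN2 by 1.17, OGDH by 1.76, TNC by 0.97 and COX15, of haem A synthesis, by 0.75. In the lower direction TP73 (p73), FBRSL1 and SCN3B, a sodium channel subunit, differed by -3.99, -4.60 and -3.09. These 3 were below -3 on days 2, 3 and 4 and at 0.64, 0.68 and 0.03 on day 5. PRSS23, a serine protease, was 0.06, -0.07 and 0.85 with shCasp10-3 and 1.89, 1.46 and 2.46 with shCasp10-2 (difference -1.65, SE 0.25). Against repeat 1 its difference was 2.08, so that the direction depends on the repeat. DUSP8 and GHRL differed by -1.70 and -5.96. Against repeat 1 the differences of TP73, SCN3B, DUSP8 and GHRL were smaller, at -1.17, -1.785, -0.46 and -1.06. That of FBRSL1 was -3.95. OGDH, in the higher direction, differed by 0.52 against repeat 1.

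The same hairpin was compared in KMS12 cells. Over days 2 to 5 limma called 0 of 9681 differences (0.0%, smallest adjusted p = 0.554), with 677 at an unadjusted p under 0.05, and 0 over days 4 and 5, with 343 higher (3.54%) and 505 lower (5.22%). The means of days 4 and 5 of both lines correlated over features at r = 0.46 (rho 0.49); the lines share the hairpin, the days and the dye orientation, but no RNA. Of the 3148 features below 0 on days 4 and 5 in H929, 60.8% were below 0 on both days in KMS12, which was 55.4% of the 3450 there (35.6% of all features), and 58.0% of the 3230 above 0 were above 0 in KMS12, 51.1% of its 3663 (37.8% of all features). Below 0 on both days in both lines were 16 of 24 replication genes, 11 of 16 MYC list genes and 13 of 20 glycolysis genes, against 19.8% of all features. Above 0 in both were 18 of 31 mature B cell genes, against 19.3%. The replication medians in KMS12 were -0.34 and -0.16 on days 4 and 5. MCM7 was -0.53 and -0.25 there and FBL -0.75 and -0.36, close to their H929 values. The difference over these days (H929 minus KMS12) was 0.01 for MCM7 (95% interval -0.51 to 0.52) and 0.09 for FBL (-0.40 to 0.58), intervals from 2 arrays in each course.

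Single genes were named for the smallest p of the difference between the lines, none past the threshold. FGD3, an exchange factor for CDC42, was 0.72, 0.47, 0.51 and 0.22 in H929 and -0.12, -0.18, -0.20 and -0.29 in KMS12 (difference 0.68, SE 0.14, limma adjusted p = 0.574). FGD3 was thus above 0 on every day in H929 and below 0 on every day in KMS12. SPARCL1, a matrix protein, was -1.02, -0.90, -0.98 and -0.08 in H929 and between 0.13 and 0.52 in KMS12 (difference -1.11, SE 0.20), and VRK1, a nuclear kinase, differed by -0.84. ALG11, of N-glycan assembly, differed by 0.70, ENPP5 by 0.83, PSMB4, a proteasome subunit, by 0.56, FAM131B by 0.57 and C12orf57 by 0.55. CCL25, SLC2A5 (a fructose transporter), MRPL43 and ABCG2 (a drug efflux pump) differed by -1.48, -1.74, -1.51 and -2.28, with H929 values under -1.4 on both wide days. On days 4 and 5 SDC1 was 0.66 and 0.35 in H929 and -0.69 and -0.32 in KMS12, a difference of 1.01 (95% interval 0.40 to 1.61, limma adjusted p = 0.536). EGR1 was 1.06 and 0.65 in H929 and 0.88 and 0.97 in KMS12, a difference of -0.07 (-0.65 to 0.52).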

How the data were processed

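The 40 arrays of the series were 2-colour lymphochip hybridisations, and the 4 of H929 shCasp10-3 are reported. Per the labels' protocols, 50 µg of total RNA, extracted with Trizol, was labelled for each dye, Cy5 for induced and Cy3 for uninduced cells. The authors deposited 1 log ratio per probe and array, read here as log2; the log base, background correction, normalization and ratio direction were not given in the sources used here, and signal over background is unknown. The number of arrays limits the precision. With 1 dye orientation throughout, any dye effect enters each response. Only a dye effect common to the arrays drops out of slopes and differences, and one that differs between arrays stays in them.

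Of 15246 probes, 10169 had 1 gene symbol in the platform annotation, which can be old, 4 had several and 5073 were not listed; 10128 matched RefSeq by Entrez identifier. A gene's value was the mean of its probes, and unnamed probes stayed single (9681 features, 4604 named). Linear models in limma 3.58.1 (R 4.3.3) gave the mean against 0, the slope per day, and differences with day as a factor. They used lmFit and eBayes, 2-sided, with Benjamini-Hochberg over all features and a threshold of 0.05. The fits were tested on data simulated with the spread of the KMS12 shCasp10-3 arrays, none of them wide. Their behaviour with the spread of days 2 and 3 of H929 shCasp10-3 was not tested. Arrays with over 10% of probes beyond 3 in absolute value were called wide. Fits of days 4 and 5, with the spread shared with the other courses, were chosen after seeing the data. Alternatives were centring of arrays, days or wide arrays left out, single probes, extreme values left out, robust eBayes, other courses compared and no day block.

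The text names CASP10; per direction the 12 response, 5 slope and 6 difference genes with 1 sign on all arrays compared (for slopes, no such condition) that passed or, failing that, had the smallest p; and the 2 members of each of 31 lists with the smallest p. Other list members named were chosen after their values were seen. The course and the lists were chosen with earlier results of these data known.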

Additional observations from a re-analysis of the deposited data

Results flagged for a closer look

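Over the 4 arrays of the course, 84 values (the named genes and the list medians) were tested for 1 array far from the others by Dixon's criterion, and 6 met it. Chance gives about 1 in 20 for values that were not chosen on these arrays; the named genes were chosen on them, so that rate does not apply to them. CCNG2 stood out on day 3, at 1.06, against 0.40 to 0.51 on the other days. TP73 was 0.64 on day 5 and between -4.40 and -3.54 on the other days. FBRSL1 was 0.68 on day 5 and between -4.88 and -4.59 before. SCN3B was 0.033 on day 5 and between -3.28 and -3.08 before. SPARCL1 was -0.08 on day 5 and between -1.02 and -0.90 before. The median of the hypoxia-induced genes was 0.092 on day 5 and between 0.01 and 0.02 before.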

How the results depend on the processing

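The response over 4 days, with 0 calls, gave 1 call with the wide arrays left out, 1 with the spread shared over all its days, 1 for days 4 and 5 with the spread shared, each time probe 28846_1, and 2 when those arrays were also centred (LCN2 added, 1.71, limma adjusted p = 0.0487). The difference from H929 shCasp10-2 gave 0 to 636 calls as each day was left out, the 636 without day 4, and 1 with no replicate block (day left out as the pairing of arrays); the difference from KMS12 gave 0 calls with no replicate block. No pairing by repeat number was possible because the shCasp10-3 arrays carry none. PRSS23 reversed against the mean of repeats 1 and 2 (0.21) and against repeat 1 (2.08); the cause was not tested. Of the other named-gene values under alternatives, 591 kept their direction and side of the threshold and 5 came to pass it. CASP10 stayed below 0, at -0.67 to -0.22 as each day was left out, -0.35 with arrays centred, -0.19 with the median of its probes and -0.03 without the wide arrays. Leaving out the wide arrays was not run for the change with day or the difference from H929 shCasp10-2, since no residual degrees of freedom remain. Signal over background is unknown, and 1 course with 1 array a day limits every comparison.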

Other observations

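The probes that lay below -3 on both days 2 and 3 were also low on several wide arrays of other cultures, but not on all. Of these 1495 probes, 53.2% were below -3 on day 2 and 44.5% on day 3 of SKMM1 shCasp10-2 repeat 2, where 30.5% and 23.4% of all probes were. On day 4 of that repeat the shares of the 1495 and of all probes were 23.4% and 10.2%. On day 5 of SKMM1 repeat 1 the shares were 35.0% and 13.5%, and on day 2 of KMS12 shCasp10-2 they were 30.6% and 19.1%. On the day 1 array of H929 shCasp10-2 without a repeat number they were 59.5% and 46.3%, and on day 2 of its repeat 1 they were 455 of the 1495 and 3816 of all 15246 probes. On day 1 of KMS12 shCasp10-2 they were 17.8% and 11.3%. On 2 other wide arrays the tail was positive: day 4 of SKMM1 shCasp10-2 repeat 3, where 14.3% of all probes and 12.1% of the 1495 were above 3, and day 3 of OCI-Ly7 shCasp10-2, a lymphoma line, where 13.2% and 16.2% were. On these, 2 and 1 of the 1495 were below -3. All these arrays share the platform and the probes but no RNA with H929 shCasp10-3.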
